A study of Homo sapiens with 13 samples.

Results

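The ubiquitin-specific proteases (USPs) are the largest family of deubiquitinases, cysteine proteases that cut ubiquitin from proteins or take ubiquitin chains apart. They oppose the ubiquitin ligases, so each USP can spare its substrates from the proteasome or change where those substrates go and what they bind. Members act on histones, DNA repair factors, p53 and its ligase MDM2, receptors on endosomes and the proteasome itself. The USPs described here were the genes whose symbol was USP followed by a number and at most 1 letter, without the USP17-like copies and without antisense genes. This rule used names only and found 53 of the 26676 gene symbols in the deposited tables. All 53 were in the table of the Silvestrol experiment and 45 were in that of the INK128 experiment.

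The data were ribosome profiling and RNA sequencing libraries from MDA-MB-231, a triple-negative human breast cancer cell line. Ribosome profiling sequences the mRNA fragments that ribosomes protect from RNase (ribosome footprints, RFs), so the number of RFs on a gene follows how many ribosomes translate its mRNA. Cells were treated with 25 nM Silvestrol, which blocks eIF4A, the RNA helicase of the cap-binding complex eIF4F, or with the vehicle DMSO. RFs were sequenced after 1 h in 1 library per treatment, all from cells of passage 3, and after 2 h in 2 libraries per treatment, from passages 3 and 4. There was also 1 RF library of untreated cells and 1 mRNA library per treatment at 2 h. In a separate experiment cells received 200 nM INK128, an inhibitor of the mTOR kinase, or DMSO for 2 h, with 1 RF and 1 total RNA library per treatment. The 2 h libraries of passages 3 and 4 were separate cultures of 1 cell line. The p-values measure the spread between passages of that line, except in fits that take the passage as a block. Labels disagreed in 2 places: the 2 h Silvestrol RF library of passage 3 carried a treatment note of 1 h, and the control mRNA library was titled DMSO but noted as untreated. The titles were followed.

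Counted reads ranged from 2652423 to 31188148 per RF library and were 50315607 and 24792922 in the control and Silvestrol mRNA libraries. The 2 passage 4 libraries were the shallowest. The mesenchymal markers VIM, CD44 and AXL had RFs in every library, with VIM between 4789 and 7031 RPKM (reads scaled to the length of the gene and the size of the library). ESR1 was listed at 0 RPKM in all 9 libraries of the Silvestrol experiment, and PGR and CDH1 did not exceed 0.11 RPKM in any of them. All libraries were scaled to their own totals, so that a loss of ribosomes or RNA shared by all genes would not show, and fewer cells and less RNA per cell cannot be told apart.

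Of the 53 USPs, 40 had enough reads to be tested (RPKM above 0, with a mean of at least 1 for RFs and 0.3 for mRNA in passage 3 at 2 h). The 13 others were USP2, USP6, USP9Y, USP12, USP17, USP18, USP26, USP29, USP31, USP41, USP44, USP50 and USP51. USP17 and USP41 had no read in any library, and 7 of the 13 had fewer than 10 RF reads in every library. USP18, which removes the ubiquitin-like modifier ISG15 and is induced by interferon, was among those with few reads, with 1 to 71 reads per library. USP9Y is a near-identical copy of USP9X, USP6 of part of USP32 and USP41 of USP18, and since uniquely mapped reads alone were counted, reads that match both genes of a pair are missing from these values.

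In untreated cells the USPs with the most RFs per length were USP14, a deubiquitinase bound to the proteasome, at 292 RPKM, USP22, the histone H2B deubiquitinase of the SAGA complex, at 279 RPKM, and USP5, which takes free ubiquitin chains apart, at 114 RPKM. The lowest of the 40 were USP35 at 1.57, USP43 at 2.18 and USP49 at 2.90 RPKM. The family thus spanned more than 100-fold in RF level before any treatment.

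After 2 h of Silvestrol, RFs fell on 5 of the 40 USPs and rose on none (quasi-likelihood test of edgeR, p adjusted by Benjamini-Hochberg over 10505 genes, threshold 0.05). Over all genes 7.88% were lower and 2.47% higher by the same test. The 5 were USP9X, USP53, USP7, USP1 and USP19. At an unadjusted p under 0.05, 11 USPs were lower and 3 were higher (USP14, USP22 and USP42), beside 18.8% and 12.6% of all genes, and DESeq2 called 6 lower and 0 higher, beside 9.6% and 5.36% of all genes. The median log2 change of the 40 USPs was -0.12, against -0.01 over all genes. Without either of the Silvestrol libraries edgeR called no gene at all, USPs included. Those fits took their spread from the 2 DMSO libraries alone, and the lone Silvestrol library was assumed to vary like them. At an unadjusted p under 0.05, 5 USPs were lower without the passage 3 library, beside 11.2% of all genes, and 7 without that of passage 4, beside 12.2%, shares near those of all genes.

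The sequence around each start codon is given for these 5 USPs and for 3 abundant USPs whose RFs did not fall (USP14, USP22 and USP5) to show where on each mRNA translation of the protein starts. eIF4F acts before this codon is reached, at the cap and along the 5′ UTR. Each run holds 18 bases before and 9 bases after the codon of the GENCODE transcript on hg19 (GRCh37), and the capitals mark the start codon.
USP9X (chrX:40982882-40982884, plus strand): atctgccctgtgtcgagtATGacagccacg
USP53 (chr4:120160915-120160917, plus strand): aaacaaagttgcttgaaaATGgcatgggta
USP7 (chr16:9057140-9057142, minus strand): gcccaggccgcggccgacATGaaccaccag
USP1 (chr1:62905539-62905541, plus strand): tgggatttgaagaaaaaaATGcctggtgtc
USP19 (chr3:49156576-49156578, minus strand): tcgaccaagcggctcaagATGtctggcggg
USP14 (chr18:158699-158701, plus strand): ctcccgccgcgccccgccATGccgctctac
USP22 (chr17:20946146-20946148, minus strand): ggccgggccttgccccccATGgtgtcccgg
USP5 (chr12:6961344-6961346, plus strand): gaagctgctgccggtgtcATGgcggagctg

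A purine 3 bases before the start codon, the best known feature of a good initiation context, was present in 34 of the 38 tested USPs with at least 18 bases of 5′ UTR. It was found in all 5 that fell and in USP14 and USP5, while USP22 has a C there. A G directly after the codon was present in 17 of the 38.

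USP9X, a very large deubiquitinase of signalling proteins and of the survival factor MCL1, lies at chrX:40944698-41095832. Its RFs were at 62.6 RPKM in untreated cells, 59.7 in DMSO at 1 h, and 55.0 and 63.7 in DMSO at 2 h (passages 3 and 4). With Silvestrol they were at 24.1 RPKM at 1 h and at 13.2 and 18.8 at 2 h. All Silvestrol values lay below all control values, and the 2 h values lay below the 1 h value. The log2 change at 2 h was -1.56 ± 0.22 (SE, n = 2 libraries per treatment; edgeR adjusted p = 0.0227), the lowest of the 40 USPs. Its mRNA was at 20.04 RPKM in the control and 21.9 RPKM in the Silvestrol library. The length over which the authors counted USP9X, as reads over RPKM imply it, was 1.21 times longer in the Silvestrol than in the DMSO library of passage 3, relative to the median gene, and 1.12 times in passage 4. An offset for that length gave a log2 change of -1.84 (adjusted p = 0.0149).

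USP53, a family member found at tight junctions, lies at chr4:120133742-120216673. RFs were at 11.8 RPKM in untreated cells, 9.60 in DMSO at 1 h, and 8.32 and 11.2 in DMSO at 2 h. They were at 4.62 with Silvestrol at 1 h and at 2.98 and 3.89 at 2 h, so the groups did not overlap. The log2 change at 2 h was -1.40 ± 0.23 (SE, n = 2 per treatment; edgeR adjusted p = 0.0303). Its read counts were the smallest of the 5, with 164 and 44 reads in the Silvestrol libraries of passages 3 and 4.

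USP7, known for removing ubiquitin from MDM2 and p53, lies at chr16:8985954-9069185. RFs were at 41.9 RPKM in untreated cells and between 38.2 and 39.5 in the 3 DMSO libraries. They were at 22.8 RPKM after 1 h of Silvestrol and at 14.5 and 15.4 after 2 h. The 3 DMSO values were close together and each was more than 1.5 times the highest Silvestrol value. The log2 change at 2 h was -1.09 ± 0.14 (SE, n = 2 per treatment; edgeR adjusted p = 0.0207), and -1.30 with the length offset, since USP7 was also counted over a length that differed between libraries.

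USP1, which with its partner WDR48 (UAF1) removes ubiquitin from the DNA repair proteins FANCD2 and PCNA, lies at chr1:62901968-62917475. RFs were at 81.9 RPKM in untreated cells and between 70.1 and 71.9 in the 3 DMSO libraries. With Silvestrol they were at 40.9 RPKM at 1 h and at 28.2 and 34.3 at 2 h. The log2 change was -1.07 ± 0.13 (SE, n = 2 per treatment; edgeR adjusted p = 0.0196). While RFs fell, USP1 mRNA was at 15.5 RPKM in the control and 34.1 RPKM in the Silvestrol library.

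USP19, whose main forms include one anchored in the endoplasmic reticulum, lies at chr3:49145479-49158371. RFs were at 25.7 RPKM in untreated cells, 25.4 in DMSO at 1 h and 24.3 and 21.8 in DMSO at 2 h, against 13.7, 12.0 and 13.3 RPKM in the 3 Silvestrol libraries. The log2 change was -0.75 ± 0.16 (SE, n = 2 per treatment; edgeR adjusted p = 0.0451). USP19 differed from the other 4 in its mRNA, which was lower with Silvestrol, at 17.5 against 21.6 RPKM. Its call was lost without the passage 3 DMSO library (adjusted p = 0.0840), with DESeq2-type (RLE) size factors (adjusted p = 0.0535) and by limma on log2 RPKM (adjusted p = 0.0569).

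**Figure D1:**
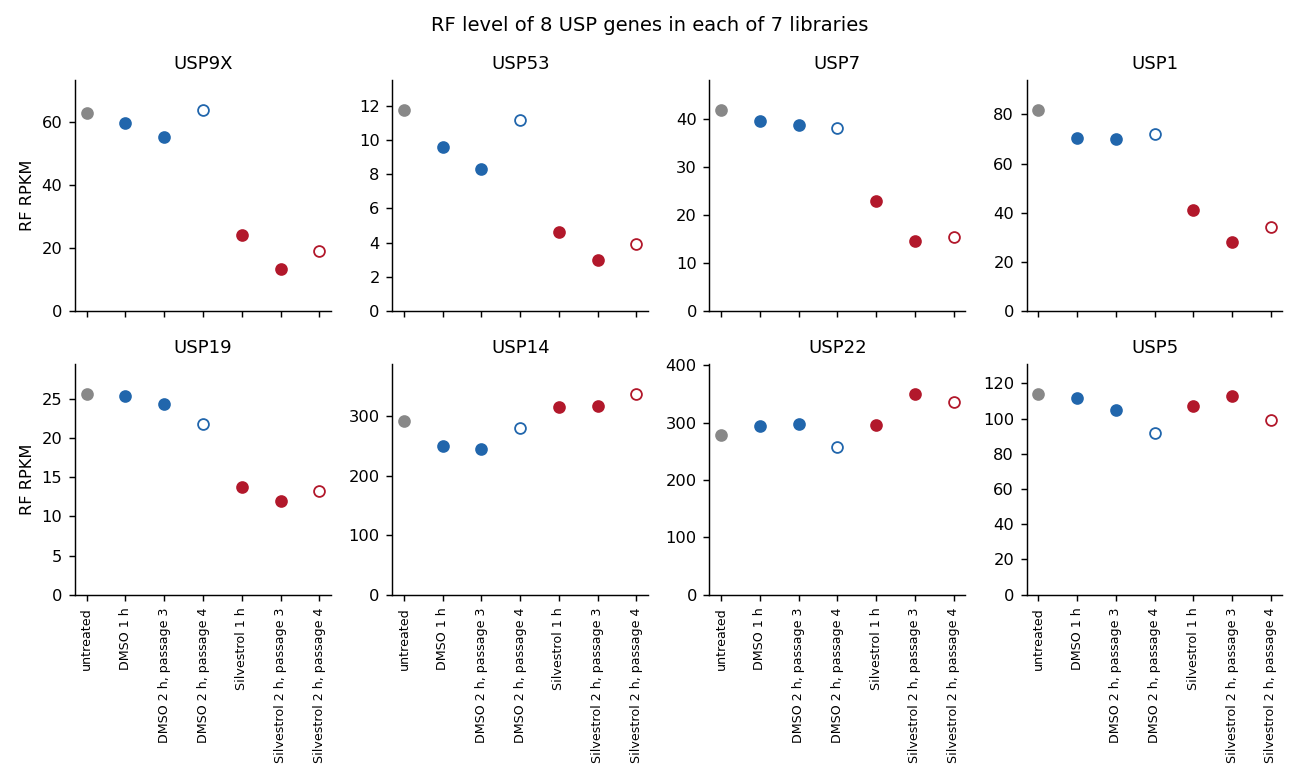
RF level (RPKM, linear axes from 0) of 8 USPs in the 7 RF libraries of the Silvestrol experiment, 1 point per library: grey untreated, blue DMSO, red Silvestrol, filled passage 3 and open passage 4. For USP9X, USP53, USP7, USP1 and USP19 the 3 Silvestrol points lie below the 4 control points (USP9X 13.2 to 24.1 against 55.0 to 63.7 RPKM), and for USP14 they lie above them.

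The numbers 1 and 2 of the 2 h libraries stand for passages 3 and 4, so a fit with the passage as a replicate block was also made. It removes differences that the libraries of a passage share, so its p-values measure only the spread that is left. With the block 14 USPs were lower and 8 were higher, beside 28.1% and 25.0% of all genes. The shares of USPs called, 35.0% lower and 20.0% higher, were each near the share of all genes. To the 5 above the block added USP8, USP16, USP20, USP25, USP32, USP33, USP38, USP47 and USP54. The 8 higher USPs were USP5, USP11, USP13, USP14, USP15, USP22, USP28 and USP42. When the offset for the counted length was added to the block, 16 USPs were lower and 2 (USP14 and USP22) were higher, beside 30.7% and 17.4% of all genes, so the other 6 calls depended on that choice. The offset without the block gave 6 lower (USP32 in addition) and 0 higher, beside 10.3% and 1.84% of all genes. Both Silvestrol RPKM values at 2 h were below both DMSO values for 20 USPs (40.1% of all genes did so) and above both for 8 (20.5% of all genes).

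**Figure D2:**
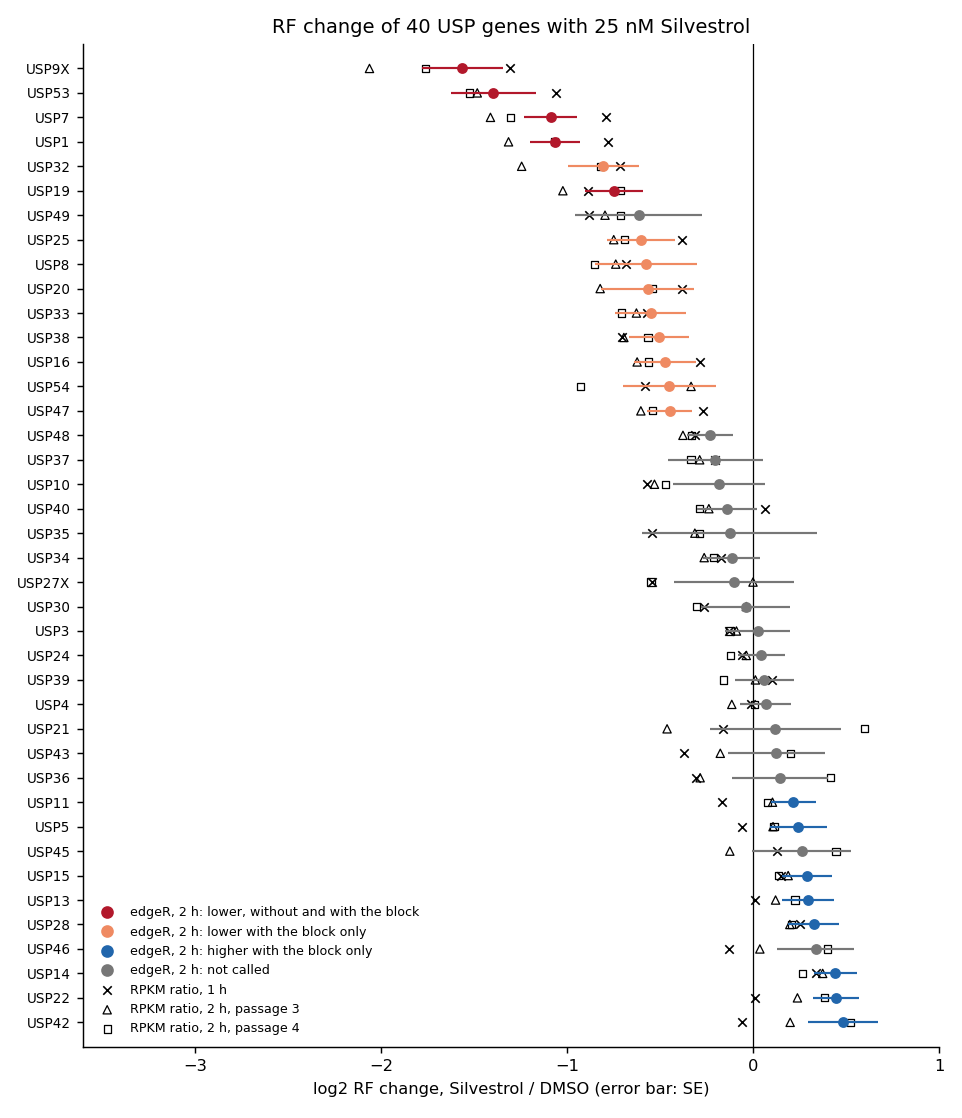
Log2 RF change with Silvestrol for the 40 tested USPs: filled points with SE bars are the edgeR values at 2 h, coloured by call, and open or crossed symbols are the RPKM ratios of the single pairs of libraries at 1 h and at 2 h in passages 3 and 4. USP9X is lowest at -1.56 and USP42 highest at 0.48, and the 2 passages lie furthest apart for USP21, at -0.46 and 0.60.

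The counts by role that follow are small and stand beside the shares of all genes already given, 7.88% lower and 2.47% higher without the block and 28.1% and 25.0% with it. The USPs that bind WDR48 are USP1, USP12 and USP46. USP1 fell, USP12 had too few reads and USP46 had a log2 RF change of 0.34 ± 0.21 (SE; edgeR adjusted p = 0.326). WDR48 itself, which activates all 3, moved the other way from USP1. Its RFs were at 33.8 and 42.1 RPKM in DMSO and 54.6 and 59.2 RPKM in Silvestrol at 2 h, and 36.8 against 45.8 RPKM at 1 h. Its log2 RF change was 0.71 ± 0.15 (SE, n = 2 per treatment; edgeR adjusted p = 0.0445), but it was not called with the length offset (adjusted p = 0.0629), by limma on log2 RPKM (adjusted p = 0.125) or without the passage 3 DMSO library (adjusted p = 0.0823). WDR48 mRNA was at 11.7 and 11.4 RPKM in the control and Silvestrol libraries.

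None of the 7 tested of 9 USPs that act on histones and chromatin was called without the block, and with it USP16 was lower and USP22 higher. USP16, a histone H2A deubiquitinase, had RFs at 28.3 and 33.8 RPKM in DMSO and 18.4 and 22.9 RPKM in Silvestrol at 2 h. The log2 change was -0.47 ± 0.17 (SE; edgeR adjusted p = 0.128, and 4.56e-04 with the block). USP22 had 297 and 258 RPKM in DMSO and 350.4 and 336 RPKM in Silvestrol at 2 h, with a log2 change of 0.45 ± 0.12 (edgeR adjusted p = 0.0788, and 1.65e-06 with the block). At 1 h USP22 was at 293 RPKM in DMSO and 296 RPKM in Silvestrol, which are nearly the same. USP21 was at 3.70 and 2.58 RPKM in DMSO and 2.69 and 3.90 RPKM in Silvestrol at 2 h, lower in passage 3 and higher in passage 4.

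ATXN7L3, a SAGA adaptor that USP22 needs for activity, had RFs at 5.86 and 6.22 RPKM in DMSO and 1.66 and 1.37 RPKM in Silvestrol at 2 h, a log2 change of -1.74 ± 0.34 (SE, n = 2 per treatment; edgeR adjusted p = 0.0396). That call was lost without either DMSO library (adjusted p = 0.0549 and 0.0504). ENY2, another subunit of the same module, had a log2 change of -0.20 (edgeR adjusted p = 0.618), and WDR20, which binds USP12 and USP46 with WDR48, 0.22 (adjusted p = 0.398). Of the 7 USP partners tested, ATXN7L3 fell, WDR48 rose and the other 5 passed in neither direction.

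All 7 USPs of the list for p53, DNA repair and the cell cycle were tested, and USP7 alone fell without the block. With it USP47, which acts in base excision repair, was lower (log2 change -0.45 ± 0.12, edgeR adjusted p = 0.0768 without and 1.22e-04 with the block). USP28, which stabilises MYC, and USP11, a partner of BRCA2, were higher with the block only. USP28 had 20.4 and 22.4 RPKM in DMSO and 23.4 and 25.8 RPKM in Silvestrol at 2 h, so the groups did not overlap but were close. USP10, known for p53 and for its partner G3BP1, had 11.7 and 12.2 RPKM in DMSO and 8.10 and 8.78 RPKM in Silvestrol, yet a log2 change on counts of only -0.18 ± 0.25 (edgeR adjusted p = 0.655). USP10 was one of 5 tested USPs (USP7, USP8, USP9X, USP10 and USP32) whose counted length differed by over 5% from the median gene between the passage 3 libraries, as for 10.0% of all genes. With the offset its log2 change was -0.45 (adjusted p = 0.179, and 0.0379 with the block as well).

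The 3 USPs that serve the proteasome or take free ubiquitin chains apart, USP5, USP13 and USP14, had positive log2 changes, with a median of 0.30 against -0.01 over all genes. All 3 were called higher with the block, as were 25.0% of all genes, and none without it, and with block and length offset USP14 alone was called (adjusted p = 0.128 for USP13). USP14 RFs were at 244 and 280.4 RPKM in DMSO and 316 and 337 RPKM in Silvestrol at 2 h, and at 249 and 315 RPKM at 1 h. The log2 change at 2 h was 0.44 ± 0.12 (SE; edgeR adjusted p = 0.0723, and 1.89e-06 with the block). USP5 was at 105 and 91.8 RPKM in DMSO and 113 and 99.2 RPKM in Silvestrol at 2 h, values that overlapped between passages, and it was called neither without the block (adjusted p = 0.339) nor with block and length offset (adjusted p = 0.167).

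Of the 6 tested of 7 USPs of membrane traffic and organelles, USP19 fell without the block and USP8, USP19, USP20, USP32 and USP33 were lower with it. Over all genes 7.88% were lower without and 28.1% with the block. The median log2 change of the 6 was -0.57, against -0.01 over all genes. USP32, linked to the Golgi and endosomes, was at 9.73 and 9.56 RPKM in DMSO and 4.11 and 5.42 RPKM in Silvestrol at 2 h. Its log2 change of -0.80 ± 0.19 (SE; edgeR adjusted p = 0.0575) was past the threshold by DESeq2 and with the length offset (adjusted p = 0.0420). USP8, which spares endocytosed receptors from lysosomes, had a log2 change of -0.58 ± 0.27 (edgeR adjusted p = 0.219, and 0.0105 with the block). USP33 and its relative USP20, both known as partners of the VHL protein, had log2 changes of -0.55 and -0.57. USP30, the deubiquitinase of the outer mitochondrial membrane, was at 6.84 and 8.46 RPKM in DMSO and 6.67 and 6.85 RPKM in Silvestrol, with a log2 change of -0.04 ± 0.24 (edgeR adjusted p = 0.929).

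Of 7 USPs of signalling pathways 5 were tested. USP9X fell, and with the block USP25 was also lower (log2 change -0.60 ± 0.18, edgeR adjusted p = 0.0942 without and 3.32e-04 with the block) and USP15, a deubiquitinase of TGF-beta receptor signalling, higher (log2 change 0.29 ± 0.14, adjusted p = 0.214 without and 0.0129 with the block). USP4 and USP34 were called in neither fit. USP39, a splicing factor that lacks the catalytic residues, was at 120 and 115 RPKM in DMSO and 121 and 103 RPKM in Silvestrol at 2 h, with a log2 change of 0.06 ± 0.16 (edgeR adjusted p = 0.829) whose sign depended on the settings. Of the 9 tested USPs given no role, USP53 fell, and with the block USP38 and USP54 were lower and USP42 higher.

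The 1 h libraries, 1 per treatment and so without a test, showed a similar order of genes. RF RPKM was more than 2-fold lower on 2 USPs, USP9X (log2 ratio -1.31) and USP53 (-1.06), beside 7.99% of all genes. The next lowest was USP19 at -0.89. The highest were USP14 at 0.34, USP28 at 0.25 and USP15 at 0.15, so that none was more than 2-fold higher (0.334% of all genes). Across the 40 USPs the log2 ratios at 1 h and at 2 h in passage 4, which share no library, had a Pearson r of 0.84 and a Spearman rho of 0.84, and those of passages 3 and 4 at 2 h had an r of 0.86. RF RPKM was lower at 1 h and in both passages at 2 h for 24 USPs (45.8% of all genes) and higher in all 3 for 5 USPs (22.2% of all genes): USP13, USP14, USP15, USP22 and USP28. The RPKM ratio of the median gene was itself below 0, at a log2 value of -0.18 at 1 h and of -0.17 and -0.15 in passages 3 and 4 at 2 h. Relative to those medians, a scale chosen for this count after seeing the data, 19 USPs were lower in all 3 (34.8% of all genes) and 13 higher (35.2% of all genes), and USP53 was no longer more than 2-fold lower at 1 h.

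USP mRNA was mostly more abundant in the Silvestrol library, again 1 library per treatment and without a test. The log2 ratio of mRNA RPKM was above 0 for 29 of the 40, with a median of 0.39 against 0.04 over all genes. The median gene was thus itself above 0, and 12 of the 40 USPs lay below it. It was above 1 for USP16 (10.8 to 24.5 RPKM, log2 ratio 1.17), USP1 (1.14) and USP53 (3.69 to 7.38 RPKM, 1.00), beside 4.7% of all genes, with USP47 and USP43 next at 0.90. The lowest were USP5 at -0.67 (64.7 to 40.6 RPKM), USP21 at -0.59 and USP4 at -0.43, and none was below -1 (1.81% of all genes). Among the 40, changes in mRNA and RFs had no close relation (Pearson r = -0.28 and Spearman rho = -0.23 for mRNA against passage 4 RFs, which come from different cultures).

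**Figure D3:**
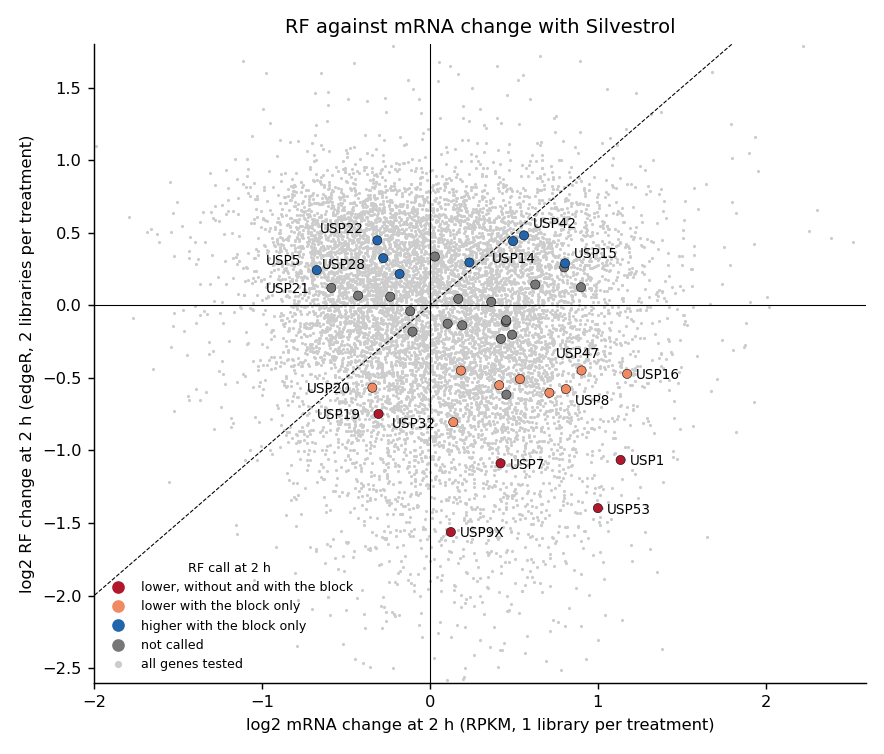
Log2 RF change at 2 h (edgeR, 2 libraries per treatment) against log2 mRNA change (RPKM, 1 library per treatment) with Silvestrol, for all 10505 genes (grey) and the 40 USPs (coloured by RF call). Genes beyond the axes are not drawn, and the dashed line marks equal change. USP1, USP53 and USP16 lie at the lower right, with more mRNA (log2 above 1) and fewer RFs, and USP5 at the left, with less mRNA (-0.67) and RFs at 0.24.

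Translational efficiency (TE) is the RF RPKM over the mRNA RPKM of a gene. Following the study's definition, its log2 change in passage 3 was expressed as a z-score over all genes, with thresholds at -1.5 and 1.5. The z-score was below -1.5 for 5 USPs, beside 6.57% of all genes, and above 1.5 for none, beside 4.7%. The 5 were USP53 (-2.20), USP1 (-2.17), USP9X (-1.90), USP7 (-1.54) and USP16 (-1.51), of which USP16 lay nearest the threshold, while USP8 at -1.25 was the next outside. The TE of USP1 was 4.52 in the control and 0.828 with Silvestrol, that of USP53 2.26 and 0.404, that of USP9X 2.75 and 0.603 and that of USP7 3.10 and 0.869. USP19, whose RFs and mRNA were both lower, had a z-score of -0.41 and a TE of 1.13 and 0.686. At the other end USP5 had 1.11, USP22 0.88 and USP28 0.80. When passage 4 supplied the RFs, 4 USPs were below and 1 above the thresholds, beside 6.75% and 4.78% of all genes, since USP7 came to -1.496 and USP21 to 1.55. These scores share their RF libraries with the RF test and are not independent of it.

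In 1 edgeR model over RF and mRNA counts, no USP passed the test of TE, beside 0.019% of all genes with lower and 0.0% with higher TE. On simulated counts this test called 0 of 100 genes changed 2-fold and 0 of 100 changed 4-fold, so a lack of calls does not show unchanged TE. At an unadjusted p under 0.05 it gave 10 USPs lower and 4 higher, beside 14.4% and 10.5% of all genes. DESeq2 called USP1, USP7, USP9X, USP16, USP47 and USP53 as lower and none as higher, beside 5.12% and 3.54% of all genes. The blocked fit gave 12 USPs with lower and 5 with higher TE, beside 22.9% and 23.1% of all genes. The 12 were USP1, USP7, USP8, USP9X, USP16, USP25, USP32, USP33, USP38, USP47, USP48 and USP53. The 5 were USP4, USP5, USP11, USP22 and USP28, with USP5 at a log2 TE change of 1.03 ± 0.17 (SE; adjusted p = 1.80e-04 with the block, 0.128 without). USP1 had a log2 TE change of -2.08 ± 0.18 with the block (adjusted p = 9.60e-07), against an adjusted p of 0.0700 without. mRNA had 1 library per treatment, so that only the RF libraries gave the model its error.

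The annotated 5′ UTRs of all 5 USPs that fell were longer than the median of all genes (134 nt), and those of 4 were above the upper quartile (248 nt). USP53 has 1102 nt, USP9X 823, USP7 621, USP1 421 and USP19 204, while the 8 USPs called higher with the block have 11 (USP15) to 186 nt (USP13), with USP5 at 30, USP14 at 142 and USP22 at 176 nt. By the block's calls the median was 336.5 nt for the 14 lower USPs, 82.0 for the 8 higher and 171.5 for the 18 in neither class. The same order held over all genes with an annotated 5′ UTR, at 252, 63.0 and 127 nt for the lower, higher and uncalled classes. Length and RF change had a Pearson r of -0.61 and a Spearman rho of -0.62 over the 40 USPs and -0.57 and -0.59 over 9058 genes, as a description of genes that share libraries. USP27X, singled out after its values were seen, has 824 nt and a log2 RF change of -0.10 ± 0.32 (edgeR adjusted p = 0.943), and USP34 has 395 nt and -0.11 ± 0.15 (adjusted p = 0.649). The 40 USPs have longer 5′ UTRs (median 189 against 134 nt) and longer coding sequences (median 2940 against 1410 nt) than genes in general, and 57.5% of them have an ATG upstream of the start codon, against 38.6%. By the block's calls, 11 of the 14 lower, 2 of the 8 higher and 10 of the 18 uncalled USPs have an upstream ATG, beside 1547 of 2599 lower, 368 of 2306 higher and 1577 of 4153 uncalled genes, so the order of the lower and higher classes was that of all genes. USP53 has 17 upstream ATGs, while USP7 and USP19 have none. The transcript that the cells used was not measured.

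**Figure D4:**
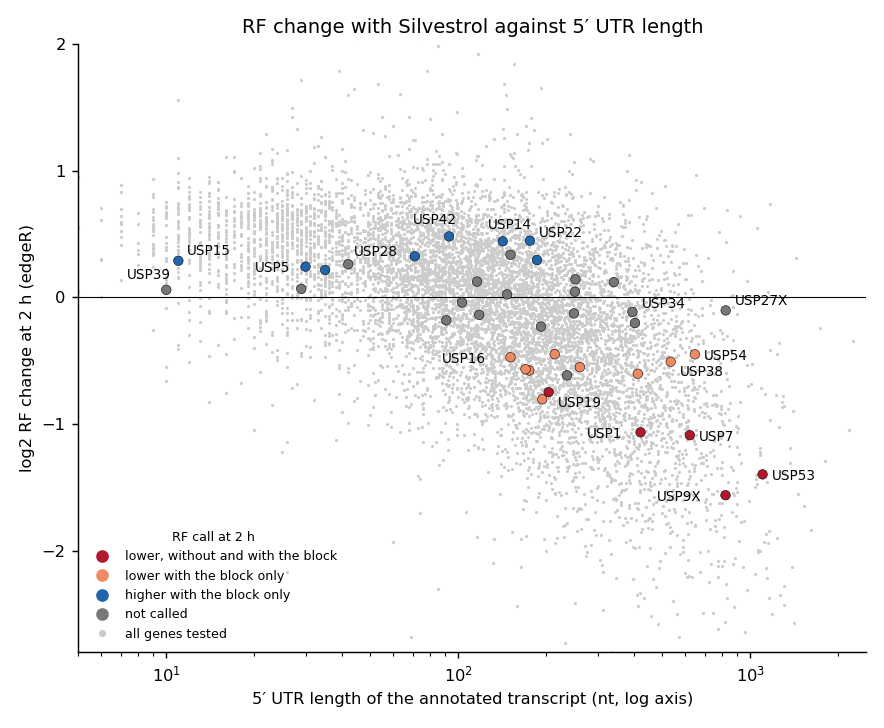
Log2 RF change with Silvestrol at 2 h (edgeR) against the length of the annotated 5′ UTR (nt, log axis) for all genes with a 5′ UTR (grey) and the 40 USPs (coloured by RF call). Genes beyond the axes are not drawn. USP1, USP7, USP9X and USP53 lie at 421 to 1102 nt and log2 changes of -1.07 to -1.56, and the USPs under 100 nt lie between -0.18 and 0.48.

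Other deubiquitinases, of the UCH, OTU, Josephin, JAMM and MINDY families with CYLD and USPL1, gave 3 lower and 1 higher of 30 tested without the block, and 10 lower and 6 higher with it. Over all genes the shares were 7.88% and 2.47% without and 28.1% and 25.0% with the block. The median log2 RF change of the 30 was -0.19, beside -0.12 for the USPs and -0.01 for all genes. The lowest were JOSD1, a small membrane-associated deubiquitinase of the Josephin family, and OTUD4. JOSD1 RFs were at 24.4 and 20.2 RPKM in DMSO and 5.31 and 3.42 RPKM in Silvestrol at 2 h (log2 change -2.12 ± 0.34, SE, edgeR adjusted p = 0.0298), with mRNA at 30.8 and 29.7 RPKM. OTUD4 had a log2 change of -1.69 ± 0.41 (edgeR adjusted p = 0.0608 without and 6.15e-09 with the block). The highest were YOD1, an OTU enzyme that acts with the ATPase p97, at 14.8 and 11.03 RPKM in DMSO and 29.3 and 35.5 RPKM in Silvestrol (log2 change 1.42 ± 0.23, edgeR adjusted p = 0.0298), and OTUD1 (0.60 ± 0.19, adjusted p = 0.0995 without and 0.00144 with the block). Of ubiquitin and the E1 enzymes, 3 of 6 genes were tested and none was called without the block.

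Under INK128, 22 of the 45 listed USPs passed the same minimum values. These data hold FPKM (fragments scaled as for RPKM) and no reads, so the depth is unknown. RF changes of these 22 were small: the log2 ratio ran from -0.10 (USP22) to 0.43 (USP40), with a median of 0.10 against 0.01 over all genes, and none was past 2-fold in either direction, beside 1.96% of all genes lower and 1.69% higher. After USP40 the highest were USP21 (0.40) and USP32 (0.38), and after USP22 the lowest were USP10 (-0.09) and USP39 (-0.05). Listed USPs under the minimum spread more widely, down to -0.66 for USP35 (1.13 to 0.715 FPKM), -0.56 for USP42 and -0.48 for USP30. They ran up to 0.55 for USP9Y, 0.49 for USP49 and 0.47 for USP53. The median over the 45 was 0.12. For the USPs that fell with Silvestrol, RFs were at 25.7 FPKM in DMSO and 31.7 FPKM in INK128 for USP9X, 15.3 and 15.7 for USP7, 23.5 and 27.4 for USP1 and 10.5 and 11.8 for USP19. USP53 was under the minimum for total RNA, with RFs at 2.45 and 3.40 FPKM. None of these values was lower with INK128, with 1 library per treatment.

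Total RNA FPKM was lower with INK128 for most genes, with a median log2 ratio of -1.17 over all genes, so changes are read relative to that shift. The 22 USPs had a median of -1.19, and 18 were below -1, as were 73.8% of all genes (0.0563% were above 1). Relative to the median of all genes none was past 2-fold, beside 0.31% of all genes lower and 5.11% higher. The lowest were USP33 at -0.50, USP12 at -0.46 and USP7 at -0.44 relative to that median, and the highest USP48 at 0.34, USP16 at 0.30 and USP34 at 0.20. The TE z-score was above 1.5 for USP12 (1.65) and USP21 (1.52), beside 1.75% of all genes, and below -1.5 for none (5.58% of all genes), the lowest being USP48 at -0.60. USP12 total RNA was at 0.56 FPKM in DMSO and 0.18 FPKM in INK128, and USP21 at 0.50 and 0.18 FPKM, near the bottom of the tested range. Adding 0.1 FPKM to every value left neither above 1.5.

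**Figure D5:**
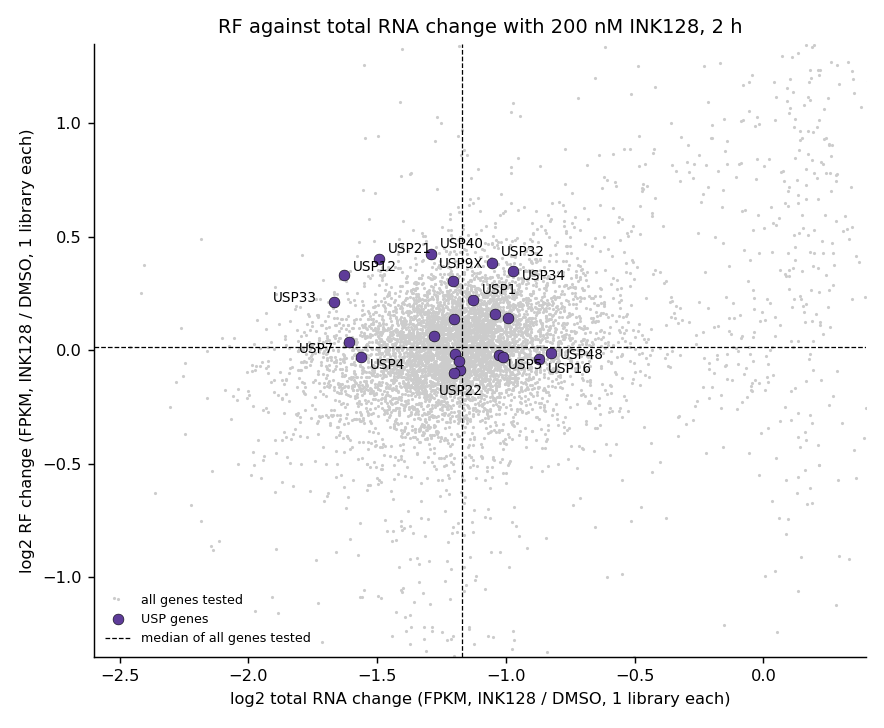
Log2 RF change against log2 total RNA change with INK128 at 2 h (FPKM ratios, 1 library per treatment) for all 7102 genes (grey) and 22 USPs (purple). Dashed lines mark the medians of all genes, at -1.17 for total RNA and 0.01 for RFs, genes beyond the axes are not drawn, and all USPs lie within 0.50 of the total RNA median.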

How the data were processed

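The 9 libraries of the Silvestrol experiment and the 4 of the INK128 experiment were used. The authors removed linkers and rRNA reads and aligned the rest to hg19 and UCSC canonical transcripts with Bowtie, which could report 16 alignments per read with 2 mismatches each. The submitters' processing notes also name CASAVA 1.8.1 and Bowtie2 version 2. They deposited counts of uniquely mapped reads per gene and RPKM, which leaves out positions with shared reads or under several transcripts. For the INK128 experiment they deposited FPKM alone, by a program not given in the sources used here. Columns with the authors' TE, fold changes and z-scores and mean RPKM were not used, and 0 columns of other samples were found.

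Repeated lines were removed (38897 lines, 25758 distinct). RF counts at 2 h were tested with edgeR 4.0.16 (TMM, quasi-likelihood test, R 4.3.3) over the 10505 genes past the filter, and TE as the interaction of assay and treatment. Library sizes came from those genes. Ratios of RPKM or FPKM had no pseudocount. SE is the log2 change over the square root of F. Same-numbered libraries were of the same passage per the labels, and their deviations from the group means had r = 0.686. The main fits left this pairing out, and the passage was used as a block in the fits given beside them. On simulated counts over 10505 genes, the RF test called 31 of 100 genes changed 2-fold and 86 of 100 changed 4-fold (log2 of 1 and 2), with 12 unchanged genes called, and the TE test called 0. DESeq2 1.42.0 and limma 3.58.1 served as alternatives.

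The annotation for start codons and leaders was GENCODE (version 44) in its GRCh37 lift. All 40 tested USPs and 9066 of the 10505 genes matched by symbol, nearly all with the MANE transcript. Named USPs were those called in either fit (up to 8 lowest and 8 highest), past a z-score threshold, the 3 lowest and 3 highest of each untested comparison and of the untreated RF level, and 13 well-known members. Members and lists were chosen with earlier results of these data known.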

Additional observations from a re-analysis of the deposited data

Results flagged for a closer look

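The log2 RPKM ratios of 5 USPs had the opposite sign at 1 h to both passages at 2 h, as did 12.0% of all genes, so the share of USPs (12.5%) was near that of all genes. The difference between times was not tested, since 1 h had 1 library per treatment. The ratio of the median gene was at -0.18 at 1 h and at -0.17 and -0.15 at 2 h. Relative to those medians 4 of the 5 were above 0 at every time, so their change of sign depended on the scale. On that scale these 4 were still higher in both passages at 2 h than at 1 h. USP5 was at -0.0603 at 1 h and 0.11 in both passages at 2 h (0.12, 0.28 and 0.26 relative to the medians). USP11 was at -0.17 at 1 h and at 0.10 and 0.0782 at 2 h in passages 3 and 4 (0.015, 0.28 and 0.23). USP42 was at -0.0596 at 1 h and at 0.20 and 0.52 at 2 h (0.12, 0.37 and 0.67). USP46 was at -0.13 at 1 h and at 0.0361 and 0.40 at 2 h (0.056, 0.21 and 0.55). USP40 kept opposite signs on both scales, at 0.0651 at 1 h and -0.24 and -0.29 at 2 h (0.25, -0.066 and -0.14 relative to the medians).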

How the results depend on the processing

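Of the 40 USPs, 5 had fewer and 0 more RFs at 2 h. With the passage as replicate block the counts were 14 and 8, and with the block and the counted-length offset, chosen after seeing the data, 16 and 2. Without each library in turn the lower count was 0 to 5 and the higher count 0, beside 7.37% and 3.07% of all genes without DMSO replicate 1 (4 USPs lower) and 9.26% and 3.09% without DMSO replicate 2 (5 USPs lower), and without either Silvestrol library edgeR called no gene of 10505, with the spread taken from the DMSO libraries alone. The edgeR TE counts of 0 lower and 0 higher became 12 and 5 with the replicate block, 13 and 5 with the block and the length offset, 6 and 0 by DESeq2, and 0 to 7 lower and 0 higher without each library (7 without DMSO replicate 1, beside 7.14% of all genes lower and 4.39% higher, and 2 without DMSO replicate 2, beside 2.97% and 0.666%). Among the USPs the block changed no call beyond those named with it in the text. The count of TE z-scores above 1.5 was 1 in place of 0 with the RFs of passage 4 and 1 with no minimum RPKM. The count of USPs more than 2-fold lower at 1 h was 1 in place of 2 with a pseudocount of 0.5 and 1 relative to the median of all genes. Under INK128, 18 USPs more than 2-fold lower in total RNA (73.8% of all genes) became 11 with a pseudocount of 0.1, 0 relative to the median (0.31% of all genes) and 33 with no minimum FPKM (added after seeing the data). The median log2 ratio over all 13121 listed genes was -1.17, so most genes were also below -1. The z-scores above 1.5 numbered 0 with that pseudocount and 5 with median and MAD in place of 2, with 1 below -1.5 in place of 0 with no minimum. Where no share of all genes is given, a count under an alternative setting is not a result about USPs. No USP was left under a minimum FPKM of 5, so that alternative gave no value.

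Log2 RF changes that turned sign were uncalled in the fit as reported: USP21 (-0.056 with block and offset), USP30 (0.0035 by DESeq2, 5e-04 with RLE factors), USP39 (-0.0105 with the offset, -0.0112 with block and offset, -0.074 by limma) and USP4 (-0.0527 by limma, -0.0041 with block and offset). Without each library in turn they ran from -0.3822 to 0.0153 for USP10, -0.1324 to 0.4475 for USP21, -0.1602 to 0.0821 for USP30, -0.735 to 0.4503 for USP35, -0.1375 to 0.2012 for USP39 and -0.0358 to 0.2785 for USP43. Log2 TE changes that turned were USP14 (-0.0195 with a minimum RPKM of 5) and, without each library, USP10 (-0.3702 to 0.0123), USP14 (-0.0183 to 0.1054), USP35 (-0.7425 to 0.4744) and USP42 (-0.0734 to 0.1642). Of 370 rechecks of the RF changes of named USPs, 316 kept their direction and their side of the threshold, 24 passed it newly, 13 no longer passed it and 17 turned sign, and of 251 of TE these were 201, 44, 0 and 6. The cause of these changes was not tested. The shallow passage 4 libraries and the single libraries per treatment for mRNA, 1 h and INK128 limit the precision.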
